A study of Brassica rapa subsp. pekinensis with 6 samples.

Results

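The miR394 family was examined in small RNA libraries of germinated Chinese cabbage (Brassica rapa subsp. pekinensis) seeds. Its members were the rows of the miRNA table whose name held miR394 or MIR394 with no further digit, whatever the species prefix, arm or suffix. Such rows numbered 8, with 7 names, and they stood for 5 of the 889 distinct mature sequences in the table. Each sequence was taken once and the reads of its rows were added. The study compared germinated seeds of the doubled haploid line 'FT' with and without vernalization, the exposure to cold that makes many plants able to flower. The 3 non-vernalized (Nor) libraries came from seeds kept for about 48 h at room temperature, and the 3 vernalized (Ver) libraries came from seeds kept at 4 °C for 25 days. According to the methods of the study, all seeds were in the dark, each dish of pooled seeds was a biological repetition, and the groups were sampled at the same length. Cold and time since germination therefore differ together between the groups and cannot be told apart, and a line of a single genotype limits what the groups stand for.

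A plant miRNA is cut from a hairpin-shaped precursor. The cut leaves a duplex of the mature miRNA and the strand paired with it, and the mature strand then guides an Argonaute protein to messenger RNAs with a nearly complementary site. In Arabidopsis, miR394 comes from the 5′ arm of its hairpin and represses LEAF CURLING RESPONSIVENESS (LCR), which encodes an F-box protein, the part of a ubiquitin ligase that chooses the protein to be degraded. There miR394 is made in the outermost cell layer of the shoot meristem, moves inward and keeps the cells below competent as stem cells together with the transcription factor WUSCHEL. It has also been linked to leaf shape and to responses to drought, salt and cold in that species. The table analysed here holds miRNAs and no messenger RNAs, so LCR was not analysed, and the labelled tissue was not checked against marker genes.

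The 5 sequences are shown 5′ to 3′ with bases 2 to 8, the seed, in capitals, because the 5′-arm forms differ from each other only at their first bases and this shifts the seed.
bna-miR394a: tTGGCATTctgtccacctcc
aly-miR394a-5p_L+1: aTTGGCATtctgtccacctcc
ghr-miR394a_L+2: aATTGGCAttctgtccacctcc
aly-MIR394b-p3: aGATCTGTtagggtttctttg
aly-MIR394a-p3_1ss2GT: aTATCTGTtagggtttcttcg
The main form, bna-miR394a, is 20 nt long, and the table also gave it as aly-miR394a-5p. The forms aly-miR394a-5p_L+1 (21 nt, also named gma-miR394a-5p_L+1) and ghr-miR394a_L+2 (22 nt) hold the whole main form plus bases gained at the 5′ end, which is what L+ marks in a name. The other 2 sequences, of 21 nt each, carry the suffix p3, given by the authors to a 3′-arm sequence that miRBase does not hold. Between aly-MIR394b-p3 and aly-MIR394a-p3_1ss2GT the substitutions are G2T and T20C, counted from the 5′ end of the first. No 2 of the 5 sequences share a seed.

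The table placed members on 5 hairpins of the B. rapa genome, 2 of which overlap, so 4 places in the genome were distinct. The genome build of these coordinates is not given for the small RNAs in the sources used here. The study names B. rapa v3.0 for its mRNA reads. The hairpins of these 4 places are shown with bna-miR394a and any 3′-arm member listed or matching there in capitals, because they show which forms each place can encode.
A02:13607130-13607285, plus strand: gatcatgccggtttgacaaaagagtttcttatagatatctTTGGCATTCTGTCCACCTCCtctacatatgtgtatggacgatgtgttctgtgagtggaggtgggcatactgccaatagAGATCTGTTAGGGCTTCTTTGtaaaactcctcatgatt
A07:14046991-14047144, minus strand: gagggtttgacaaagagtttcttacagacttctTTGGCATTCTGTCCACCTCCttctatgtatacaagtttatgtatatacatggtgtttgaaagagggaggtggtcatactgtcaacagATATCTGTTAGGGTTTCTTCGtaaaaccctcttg
A07:20750845-20751016, minus strand: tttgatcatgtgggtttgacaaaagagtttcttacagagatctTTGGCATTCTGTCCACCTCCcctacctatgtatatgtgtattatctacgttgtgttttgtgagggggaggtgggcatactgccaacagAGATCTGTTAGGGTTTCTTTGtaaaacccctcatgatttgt
A07:27071216-27071335, plus strand: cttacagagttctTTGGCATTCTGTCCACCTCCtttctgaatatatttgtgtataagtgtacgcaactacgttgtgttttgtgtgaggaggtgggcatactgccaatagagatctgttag
The sequence of bna-miR394a occurred without a mismatch in all 5 hairpins, so its reads cannot be assigned to a place. Among these hairpins the 3′-arm forms were more specific, and the rest of the genome was not searched. aly-MIR394a-p3_1ss2GT matched without a mismatch only the hairpin at A07:14046991-14047144, where the authors listed it. aly-MIR394b-p3 matched without a mismatch only the hairpin at A07:20750845-20751016, although the authors listed it on the A02 hairpin, from which it differs by T14C (the base of the sequence first, then that of the hairpin). The hairpin at A07:27071216-27071335 is too short to hold a whole 3′-arm form, so whether that place encodes one cannot be told.

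In the RefSeq annotation of B. rapa, assembly CAAS_Brap_v3.01, the A02 hairpin lies within the spans of the protein-coding gene LOC103853002 and the long non-coding RNA gene LOC117132194. The hairpin at A07:20750845-20751016 lies within the long non-coding RNA gene LOC103830624. No gene of that annotation overlaps the other 2 places. Exons and introns were not told apart, since the annotation used here gives gene spans only. The builds were compared through 78 miRNA genes found in both the table and this annotation, of which 71 had the same chromosome, start and end.

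The 5′-extended forms did not match the listed hairpins at their added bases, and the rest of the genome was not searched. In every hairpin the bases before the main form are C and T, and the differences from the hairpin were A1T for aly-miR394a-5p_L+1 and A1C with A2T for ghr-miR394a_L+2. The authors listed ghr-miR394a_L+2 without a match to the genome. The 3′-arm forms started 3 bases after the end of the stretch paired with bna-miR394a in each of the 3 hairpins that hold their whole length. They are therefore not the strand that pairs with it. None of the 889 sequences other than members matched any of the 5 hairpins exactly, and no member overlapped the stretch opposite bna-miR394a.

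**Figure D1:**
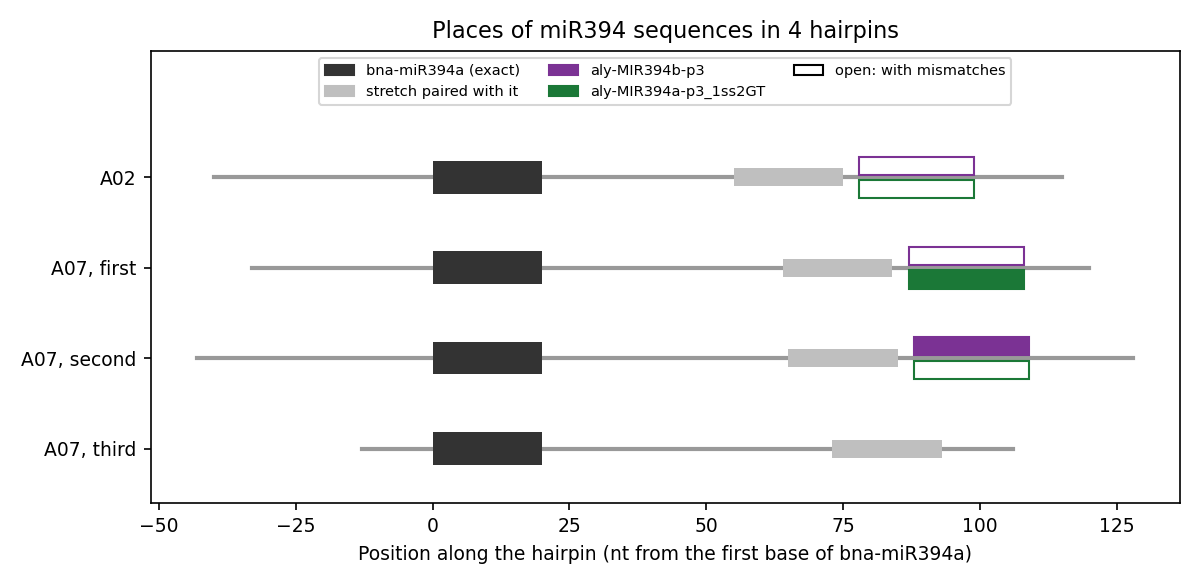
Places of the miR394 sequences along the hairpins of the 4 distinct places, in nucleotides from the first base of bna-miR394a. Black bars are bna-miR394a, grey bars the stretch that pairs with it, and coloured bars the 3′-arm sequences, filled where they match exactly and open where they do not. Each 3′-arm sequence matches 1 hairpin and starts 3 bases beyond the grey stretch.

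The libraries held 749852 to 968483 miRNA reads in Nor and 589061 to 771529 in Ver. These totals are miRNA reads only and not the sequencing depth. Nonzero values of sequences listed on a single row numbered 2407 in the table, of which 0 were exactly 1 or 2 reads, 145 were under 5 and 233 were exactly 5. Some values below 5 were thus listed, and the minimum that the authors applied is not given in the sources used here. A listed 0 was treated as anything up to 5 reads. Levels are given as RPM, reads per 1e6 reads of the library total after TMM scaling. A difference was called when the adjusted p of the edgeR quasi-likelihood test, with Benjamini-Hochberg adjustment over the 405 sequences tested, was under 0.05. By this rule 61.0% of all sequences tested were called, 32.8% as lower in Ver and 28.1% as higher in Ver. A call alone therefore says little about a member, and its size is given with it. The median log2 fold change (log2FC, Ver over Nor) over all sequences tested was -0.19, and it was -0.06 with the factors of the authors as scaling.

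The main form of miR394 was lower in vernalized seeds. bna-miR394a had 13019, 10500 and 10145.5 reads across Nor 1 to 3 against 2541, 1754 and 1886 across Ver 1 to 3. Its level was 12779, 14243 and 13675 RPM across Nor 1 to 3 against 3257, 2918 and 3316 RPM across Ver 1 to 3. The groups were far apart, and the libraries within each group lay close together. In bulk seeds, fewer cells that make the miRNA and less miRNA per cell cannot be told apart. The mean was 13566 ± 738 RPM for Nor against 3164 ± 215 RPM for Ver (n = 3 per group, SD), a log2FC of -2.10 ± 0.077 SE (edgeR adjusted p = 3.583e-08), or 4.29-fold lower. Among the distinct sequences it ranked 14 or 15 by reads in the Nor libraries and 38 or 39 in the Ver libraries. Of the 405 sequences tested, 46 had a lower log2 fold change. Among the 18 sequences whose mean level was at or above its own, itself included, 1 had a lower log2 fold change. It was called under each of the 18 alternatives tried, with log2 fold changes from -2.13 to -1.96.

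The 5′-extended forms were rare and were also lower in Ver when added together. aly-miR394a-5p_L+1 had 24, 14 and 7 reads across Nor 1 to 3 against 10, 0 and 0 across Ver 1 to 3. The groups overlapped, since Ver 1 was above Nor 3 in reads and in RPM, and the sequence did not pass the filter on low counts, so it has no fold or test. Its level was 17.3 ± 7.21 RPM for Nor against 4.27 ± 7.40 RPM for Ver (n = 3 per group, SD). ghr-miR394a_L+2 had 29, 15 and 24 reads across Nor 1 to 3 against 0, 5 and 0 across Ver 1 to 3. No Ver library was above 5 reads, and every Nor library was at 15 or more. Against the level of 5 reads per library its expression was at least 3.45-fold lower in Ver. The edgeR fit to the values as listed, not to this level, gave an adjusted p of 0.0120. The sequence passed the filter only through its Nor values, so this p is no independent support. It stayed under the threshold in 12 of 17 alternatives, and the exceptions included the fits without Nor 1 (adjusted p = 0.0683) and without Nor 3 (0.0604).

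Added together, the 5′-extended forms had 53, 29 and 31 reads across Nor 1 to 3 against 10, 5 and 0 across Ver 1 to 3. Every Ver library was below every Nor library. Their summed level fell from 44.4 ± 6.73 to 7.04 ± 6.50 RPM (n = 3 per group, SD) at a log2FC of -2.55 ± 0.627 SE (edgeR adjusted p = 0.00627). The sum passed the filter only through its Nor values, so this p is no independent support. The size depends on the listed zeros, being -1.27 when every 0 was set to 5 reads, and without Nor 1 the sum was no longer called (log2 fold change -2.34, adjusted p = 0.0580).

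The 3′-arm forms were higher in Ver, the opposite of the main form. aly-MIR394b-p3 was listed at 0 in Nor 1 to 3, and had 18, 31 and 12 reads in Ver 1 to 3. Every Ver library was thus above the 5 reads that a listed 0 allows. Against that level its expression was at least 5.19-fold higher in Ver. The edgeR adjusted p of 8.905e-04 comes from the zeros as listed, and the sequence passed the filter only through its Ver values, so this p is no independent support. aly-MIR394a-p3_1ss2GT, the form of the hairpin at A07:14046991-14047144 shown above, had 12, 12 and 5 reads across Nor 1 to 3 against 31, 25 and 28 across Ver 1 to 3. It was detected in every library, and the groups did not overlap. The mean rose from 11.6 ± 4.77 to 43.5 ± 5.03 RPM (n = 3 per group, SD) at a log2FC of 1.89 ± 0.397 SE (edgeR adjusted p = 0.00249). Its Nor values alone would not have passed the filter, so this p is no independent support either.

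Added together, the 3′-arm forms had 12, 12 and 5 reads across Nor 1 to 3 against 49, 56 and 40 across Ver 1 to 3. The lowest Ver library, at 40 reads, was well above the highest Nor library, at 12. Their summed level rose from a mean of 11.6 ± 4.77 to 75.4 ± 15.8 RPM (n = 3 per group, SD) at a log2FC of 2.68 ± 0.362 SE (edgeR adjusted p = 1.564e-04). The sum was called in all 17 alternatives that gave a value, with log2 fold changes from 2.13 to 3.01. The sums by arm were formed after the values of the members had been seen.

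**Figure D2:**
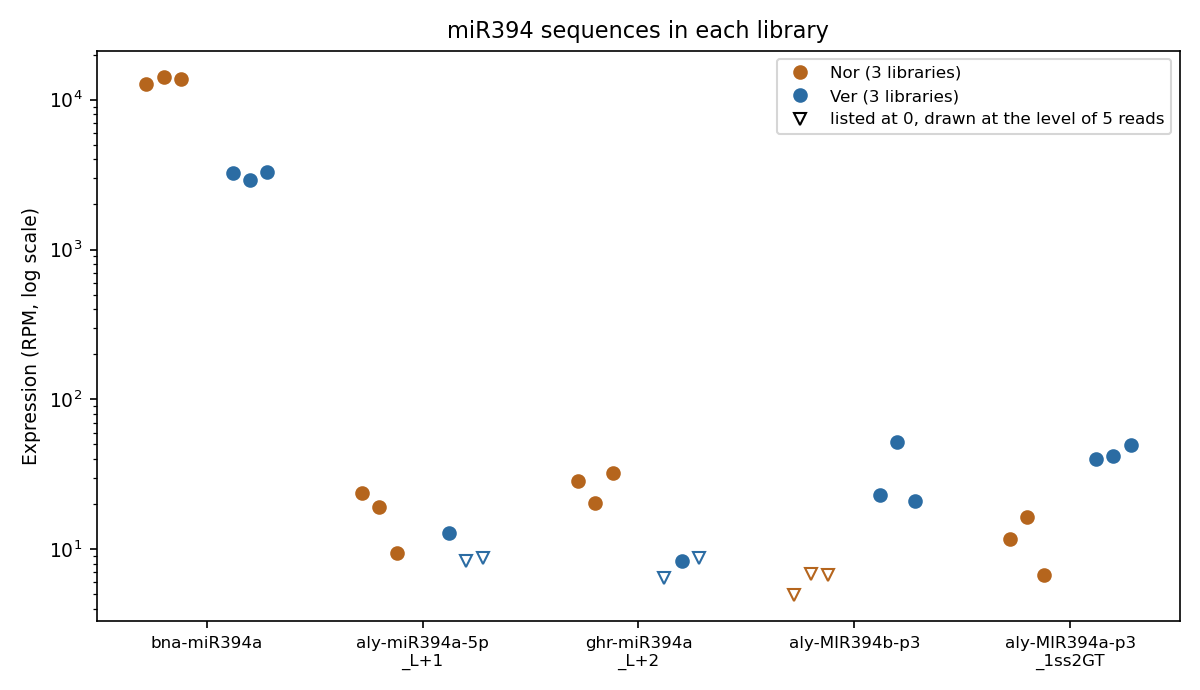
Level of each miR394 sequence in each of the 6 libraries, in RPM on a log axis. Circles are libraries with reads (brown Nor, blue Ver) and open triangles are libraries listed at 0, drawn at the level of 5 reads. bna-miR394a and the 5′-extended forms tend to lie lower in Ver, with an overlap for aly-miR394a-5p_L+1, and the 3′-arm forms lie higher in Ver.

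Of the 5 members, 4 passed the filter on low counts, and 2 of these were called lower and 2 higher. ghr-miR394a_L+2 passed only through its Nor values, and aly-MIR394b-p3 and aly-MIR394a-p3_1ss2GT only through their Ver values. This count therefore supports no statement about the family. The family total followed the main form, with 13631 ± 757 RPM for Nor against 3244 ± 198 RPM for Ver (n = 3 per group, SD) at a log2FC of -2.07 ± 0.075 SE (edgeR adjusted p = 4.266e-08). Without the main form, the other 4 sequences had 65, 41 and 36 reads across Nor 1 to 3 against 59, 61 and 40 across Ver 1 to 3. Their sum was 56.0 ± 7.58 RPM for Nor against 82.4 ± 16.6 RPM for Ver (n = 3 per group, SD). The log2FC of 0.55 ± 0.232 SE (edgeR adjusted p = 0.0646) was not called, and it passed the threshold in 8 of 18 alternatives. This sum adds sequences of opposite direction.

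The make-up of the family was then compared as shares, which need no scaling between libraries. The family held 1.35%, 1.40% and 1.36% of all miRNA reads in Nor 1 to 3 and 0.337%, 0.308% and 0.321% in Ver 1 to 3. The highest Ver share, 0.337% in Ver 1 (95% Wilson interval 0.324 to 0.350), was below the lowest Nor share, 1.35% in Nor 1 (1.33 to 1.37). The means were 1.37% ± 0.0282 and 0.322% ± 0.0145 (n = 3 per group, SD), with an exact two-sided permutation p of 0.1, the smallest that 3 against 3 libraries can give. The intervals hold counting error alone, since no molecular identifiers are described and reads may be copies of the same molecule.

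Within the family, bna-miR394a held 99.5%, 99.6% and 99.6% of the reads in Nor 1 to 3 and 97.7%, 96.6% and 97.9% in Ver 1 to 3. The mean went from 99.6% ± 0.0746 to 97.4% ± 0.693 (n = 3 per group, SD, exact two-sided permutation p = 0.1, the lowest possible). The 3′-arm forms held 0.0917%, 0.114% and 0.0491% in Nor 1 to 3 and 1.88%, 3.09% and 2.08% in Ver 1 to 3. The highest Nor library (0.114%, 95% Wilson interval 0.0651 to 0.199) was below the lowest Ver library (1.88%, 1.43 to 2.48), and the exact two-sided permutation p was 0.1 for n = 3 each. The 5′-extended forms held 0.328% ± 0.0682 for Nor against 0.220% ± 0.198 for Ver (n = 3 per group, SD, exact two-sided permutation p = 0.5). The libraries of the groups overlapped in that share, and in Ver 3 a share of 0% had an upper Wilson bound of 0.199%. No change in the share of 5′-extended forms was detectable at this depth. The fall of the main form's share thus went with the 3′-arm forms, and among 5′-arm reads alone its share differed by 0.103 percentage points in the other direction (exact two-sided permutation p = 0.5, n = 3 each).

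**Figure D3:**
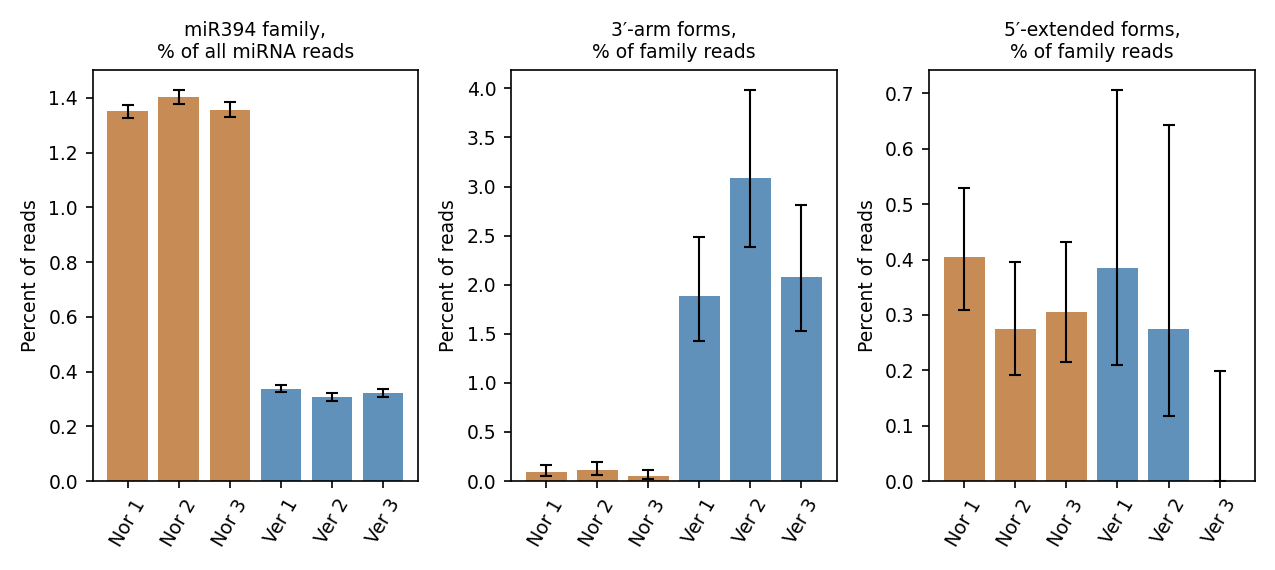
Shares of reads in each library, in percent, with 95% Wilson intervals as bars (counting error only). The miR394 family is below 0.35% of all miRNA reads in each Ver library and above 1.3% in each Nor library, the 3′-arm forms hold more of the family in each Ver library, and the 5′-extended forms overlap.

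Other miRNA families with an F-box gene among their targets were set beside miR394, taken by family number without regard to arm. In Arabidopsis, miR393 targets the auxin receptors TIR1 and AFB, which are F-box proteins, and miR2111 targets a gene for a kelch-repeat F-box protein. The families miR393, miR394 and miR2111 together had 15 sequences, of which 10 were tested. Of these, 7 were called lower and 2 higher in Ver, the 2 higher being the 3′-arm forms of miR394, where 32.8% of all sequences tested were called lower and 28.1% higher. In 3 of the 10 a whole group was at 5 reads or fewer, so they passed the filter through the other group only. The lower group of aly-MIR394a-p3_1ss2GT, bra-miR2111a-3p, bra-miR2111b-3p and ath-miR393a-5p would also not have passed the filter by itself. Most of the 10 were thus tested because of the group where they are high, and the count is a description. The median log2 fold change of the 10 was -2.45, or -1.94 with the 3 at their bounds, against -0.19 over all sequences tested. The miR2111 sum fell from a mean of 769 ± 15.5 to 42.0 ± 4.78 RPM (n = 3 per group, SD) at a log2FC of -4.18 ± 0.123 SE (edgeR adjusted p = 1.564e-08). All 4 tested miR2111 sequences were 3′-arm forms by name, and each was called lower. Whether those strands are directed at the F-box gene was not tested. For miR393 the sum was 71.5 ± 15.8 RPM for Nor against 45.2 ± 4.29 RPM for Ver (n = 3 per group, SD) at a log2FC of -0.66 ± 0.251 SE (edgeR adjusted p = 0.0447). That call was lost with the factors of the authors (adjusted p = 0.0975) and with DESeq2 size factors (0.0745). The 2 tested miR393 sequences, of different arms, went in opposite directions. ath-miR393a-5p was called lower (log2 fold change -1.36, edgeR adjusted p = 0.0110). ath-miR393b-3p_1ss14TA was not called (log2 fold change 0.29, edgeR adjusted p = 0.471). The 3 families thus differed widely in the size of their log2 fold changes, and these differences were not tested against each other.

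The second list held families known from the Arabidopsis shoot meristem, where miR394 acts. Among them, miR164 limits CUP-SHAPED COTYLEDON genes that set organ boundaries, miR165 and miR166 limit HD-ZIP III genes of the upper leaf side, and miR170 and miR171 limit HAIRY MERISTEM genes. With miR394 these families had 44 sequences, of which 29 were tested, 12 were called higher and 7 lower, with a median log2 fold change of 0.24. The share called, 65.5%, was near the 61.0% of all sequences tested. The miR164 sum rose from a mean of 1336 ± 79.3 to 2543 ± 77.4 RPM (n = 3 per group, SD) at a log2FC of 0.93 ± 0.075 SE (edgeR adjusted p = 6.222e-06). The miR166 sum rose by 0.47 on the log2 scale (SE 0.073, edgeR adjusted p = 3.742e-04), and the miR171 sum fell by 0.75 (SE 0.061, edgeR adjusted p = 5.764e-06). The sums of miR165 (log2 fold change 0.33, SE 0.266, edgeR adjusted p = 0.302) and miR170 (-0.09, SE 0.077, edgeR adjusted p = 0.341) were not called. The value of miR170 changed sign with the scaling, being 0.05 with the factors of the authors. These sums also took every arm listed. The 1 tested miR170 sequence was ath-miR170-5p, a 5′-arm form, and whether that strand limits HAIRY MERISTEM genes was not tested. Of the 6 tested miR171 sequences, 4 were called lower and 1 higher, the latter being aly-miR171b-5p (log2 fold change 1.04). Within this list miR394 had the lowest log2 fold change of any family sum.

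**Figure D4:**
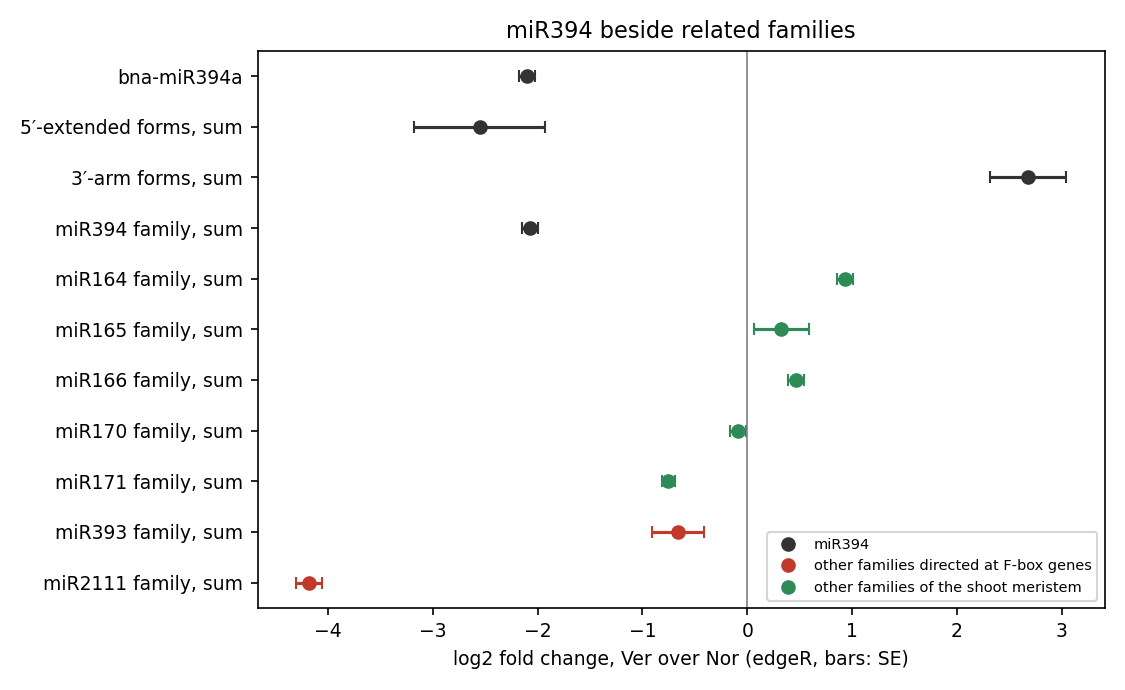
log2 fold changes of Ver over Nor for miR394 forms and for the sums of related families over every arm listed, with the SE of the edgeR fit as bars. miR394 and its main form lie near -2.1, between miR393 (-0.66) and miR2111 (-4.18), the 3′-arm forms lie at 2.68, and the other shoot meristem families lie between -0.75 and 0.93.

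The sequences whose pattern over the 6 libraries was most like that of bna-miR394a were found by the root mean square difference of log2 RPM, each sequence centred on its own mean. There were 197 candidates with a mean of at least 100 RPM, with a median difference of 1.02. The nearest 5 are shown, with a CCA at the 3′ end in capitals.
bra-miR156b-3p: gctcactctctatctgtcacc
ath-miR8175_L+3: ttcgatccccggcaacggcgCCA
osa-miR5077_L-1_1ss5GA: ttcacgtcgggttcaCCA
PC-3p-2287_2359: ttgtggaaccgtgtgaatacc
bdi-miR5054_1ss8GA: tccccacagtcggcgCCA
The nearest was bra-miR156b-3p (difference 0.0835), a 3′-arm sequence of the miR156 family, whose main form holds back SPL genes of the juvenile-to-adult transition in Arabidopsis. Its mean level was 22074 RPM for Nor against 5746 RPM for Ver at a log2FC of -1.94 ± 0.065 SE (edgeR adjusted p = 3.230e-08). After it came ath-miR8175_L+3 (difference 0.107, log2 fold change -1.99), osa-miR5077_L-1_1ss5GA (0.137, -2.16), the predicted PC-3p-2287_2359 (0.141, -1.85) and bdi-miR5054_1ss8GA (0.154, -2.16). The sixth was close behind at 0.158, so the list has no clear end. Of these 5 sequences, 3 end in CCA, which is also the 3′ end of every mature tRNA, against 12 of the other 192 candidates. Of those 12, 8 were also called lower in Ver, where 32.8% of all sequences tested were called lower. The share called lower among all candidates was not taken. A fall of CCA-ending sequences was thus not particular to the 5. bna-miR394a itself ends in TCC. Likeness over 6 libraries in 2 groups mostly reflects a similar fold change, and these sequences were chosen for it, so their fold changes are a description.

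**Figure D5:**
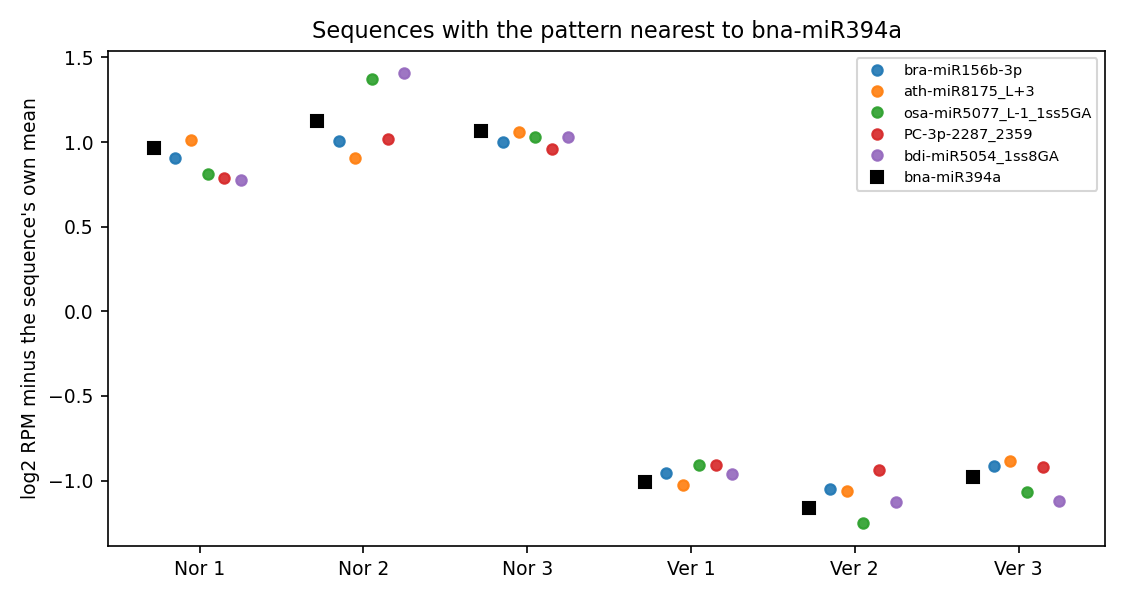
log2 RPM of bna-miR394a (black squares) and of the 5 sequences nearest to it, each minus its own mean over the 6 libraries. All 6 sequences lie between 0.77 and 1.41 in the Nor libraries and between -1.25 and -0.88 in the Ver libraries.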

How the data were processed

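Small RNA from 3 Nor and 3 Ver libraries was analysed. According to the study's methods, the authors prepared libraries with a TruSeq small RNA kit, removed adapters, low-complexity reads and reads of other RNA families, and used BLAST to match the rest with miRBase precursors. Per the file headers, precursors or reads were also mapped to a genome. The BLAST settings and, for small RNAs, the genome build are not given in the sources used here. The deposited raw values are estimated counts per row, with the reads of a sequence divided over its rows. The normalized values, as deposited, are a signal (the raw value times 1 factor per library). Columns of the authors' own comparison (fold changes, p-values) were not used.

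Rows were added per sequence and rounded to whole numbers. Ver was compared with Nor by the edgeR 4.0.16 quasi-likelihood test (R 4.3.3; TMM factors 0.949 to 1.052; default low-count filter; group as the only term), with Benjamini-Hochberg adjustment over 405 sequences. The biological coefficient of variation was 0.146. Each standard error was the absolute log2FC divided by the root of its F statistic. The edgeR fit was also tested on simulated counts, with the same dispersion for every sequence and no minimum on listed values. That is no check on how listed zeros affect the rare members. Sums were fitted in place of their members in the whole table. Shares were compared by exact permutation tests.

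No 2 replicates agreed within sampling noise (chi-square per degree of freedom 3.01 to 11.7). The text names every member, the sums of the listed families and the 5 sequences most like bna-miR394a (prior count 0.5). Members and lists were chosen with earlier results of these data known. Alternatives were other scalings (including limma 3.58.1 on the normalized values), filters, DESeq2 1.42.0, 1 row per name, zeros set to 5 reads, a replicate block and leaving out each library.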

Additional observations from a re-analysis of the deposited data

How the results depend on the processing

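bna-miR394a and the family sum kept direction and call in all 18 alternatives, and the 3′-arm sum, chosen after seeing the data, in all 17 that gave a value. In the fit as reported, the 3′-arm sum passed the filter only through its Ver values and the 5′-extended sum only through its Nor values. For the 3′-arm sum leaving out 1 library gave 2.47 to 3.01. The sum of the other 4 sequences passed the threshold with DESeq2 size factors (log2 fold change 0.64), the factors of the authors (0.68), 1 row per name (0.63), zeros set to 5 reads (0.62), and limma with 1 (0.67) or 0.1 added (0.68). Leaving out 1 library gave 0.46 to 0.76 for that sum, and it was called without Ver 1 (0.66) and without Ver 3 (0.70). The 5′-extended sum, also chosen after seeing the data, was not called by limma with 0.1 added (-4.00, adjusted p = 0.0858), and leaving out 1 library gave -3.30 to -1.97. aly-miR394a-5p_L+1, untested as reported, passed the filter in 7 alternatives and was called only without Ver 1 (adjusted p = 0.0121). The share of sequences called went from 61.0% to 40.5% when an absolute log2 fold change over 1 was also required. It was 28.0% without the filter on low counts, 31.0% by the DESeq2 test and 71.6% with at least 10 counts in every library. Each of these 3 shares is over the sequences tested in that setting. With only 5′-arm forms as the family, the Ver minus Nor difference in the main form's share was 0.103 instead of -2.16 percentage points. The family's share of all miRNA reads, lower by 1.05 percentage points in Ver, gave a difference of -0.0963 over valid reads and -1.13 without 18-nt sequences ending in CCA. A minimum of 10 reads in every library left no value for the 4 other members or for the sums by arm. Where no construction shows it, the cause was not tested. Same-numbered libraries did not deviate together (correlations 0.133, -0.06 and 0.031), so they share only a number. With a replicate block 204 sequences were called, and the log2 fold change of bna-miR394a was -2.10 (adjusted p = 2.604e-05). The values in that fit were 0.54 for the other 4 sequences and -3.59 for ghr-miR394a_L+2, which was not called (adjusted p = 0.0625). Nor 1 correlated best with its own number, Nor 2 did not. The members other than bna-miR394a had at most 31 reads in any library, which limits their precision.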
